A study of Mus musculus with 16 samples.

Results

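The 8 genes described here encode the Myc, Max and Mxd network: the activators Myc, Mycn and Mycl, their shared partner Max, and the repressors Mxd1, Mxd4, Mxi1 and Mnt. They were chosen by name, and all 8 were found by gene identifier among 55414 genes counted in every file. RNA sequencing of polyadenylated RNA covered 16 mouse bone marrow libraries of 2 genotypes, WT (wild type) and Nat10-/- (genotype given as Nat10 deficiency), at 0, 1, 3 and 5 h after 5 µM actinomycin D, with 2 files per genotype and time. Nat10 is the enzyme that writes N4-acetylcytidine on RNA, actinomycin D blocks transcription, and the series measured how long mRNAs last in long-term haematopoietic stem cells with and without that enzyme. All groups shared the same culture of lineage-depleted marrow with stem cell factor (10 ng/mL), thrombopoietin (20 ng/mL) and heparin, and stem cells were sorted at each time. How the deficiency was made, whether animals were pooled, and their strain and age are not given in the sources used here.

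Myc proteins bind DNA only as pairs with Max, and such pairs at E-box sequences promote ribosome production, metabolism and cell division. Mxd proteins, Mxi1 and Mnt compete for Max and recruit Sin3 and histone deacetylases to the same sites, so the balance of the members sets the output. Myc mRNA is a textbook unstable message, and in marrow Myc and Mycn together are known to govern whether stem cells stay in the niche, survive and differentiate.

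Several features of these libraries touch every value below. The libraries are labelled long-term stem cells in one field and "32D cell", the name of a myeloid line, in the titles, and the 2 files of each group are labelled biological replicates although their headers name the same alignment. P-values therefore measure only the spread between 2 files of a group, which may be technical, since counts within pairs differed by 1.43 to 1.81 times the counting variance. Total counts were 9142413 to 17274128 per library. ERCC spike-in RNA, added in equal amount, took 1.79% to 2.92% of counts in WT but 0.0221% to 0.129% in the libraries labelled Nat10-deficient. Nat10 mRNA did not follow the label: its log2 differences (labelled Nat10-deficient over WT) at the 4 times were 0.33, -0.12, 1.21 and 1.96, in order of time, and which exons the deficiency removes is not given in the sources used here. Stem cell markers were present, all 16 with counts in every group. Their summed level was 3500 to 3552 CPM (counts scaled to a common total of gene counts) in WT at 0 h against 1495 to 1508 CPM in the other genotype. At 3 h the order was opposite, with 842 to 852 CPM in WT against 955 to 996 CPM, and at 5 h the values were 571 to 583 against 482 to 483 CPM. Immunoglobulin genes, which stem cells do not make, took 3.92% to 66.7% of gene counts in WT libraries, and the plasma and B cell list stood at 3803 to 3820 CPM before the block and at 72140 to 73779 CPM after 5 h, where none of its 16 markers was at 0. In the other genotype the share was 4.31% to 27.5%. There the list stood at 6386 to 6396 CPM before the block, rose to 8728 to 8787 CPM at 1 h and 30536 to 30656 CPM at 3 h, and was at 4392 to 4394 CPM after 5 h. Neutrophil and monocyte markers stood at 6377 to 6446 CPM in WT at 0 h and 10555 to 10642 CPM in the other genotype, and eosinophil markers at 259 to 265 against 1373 to 1386 CPM. Mast cell and basophil, erythroid, and T and NK cell lists were also higher there at 0 h. The megakaryocyte and platelet list was lower (1733 to 1780 against 755 to 778 CPM). In bulk RNA, fewer cells of a type and less RNA per cell cannot be told apart, and the part these markers have in the results below was not tested.

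Before actinomycin D, Myc was by far the most abundant member per length, followed by Mycn. Per kilobase of exon, Myc stood at 151 and 152 CPM in the 2 WT files and at 152 and 153 CPM in the 2 labelled Nat10-deficient files. Mycn, the paralogue prominent in embryonic and immature cells, stood at 54.2 and 55.6 CPM per kilobase in WT and at 28.3 and 27.2 in the other genotype. Mycn was thus second in both genotypes, while the order below it differed. In WT it ran Max (mean 13.0), Mxd1 (7.41), Mnt (5.17), Mxi1 (4.00) and Mxd4 (2.61 CPM per kilobase). In the labelled Nat10-deficient libraries it ran Mxd1 (14.2), Max (9.26), Mnt (6.89), Mxi1 (4.21) and Mxd4 (3.26). No neighbours in either order overlapped between files at 0 h, so Mxd1 and Max stood in opposite order.

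Mycl, the remaining activator, was barely detected. Both WT files had 0 counts except at 3 h, with 26 and 23 counts. The labelled Nat10-deficient files held 6 and 5 counts before the block, 9 and 10 after 1 h, and 0 later. All 8 members passed the filter on low counts, Mycl only through the WT files at 3 h. In CPM, with the group at 0 set to a floor of 3 counts, Mycl was 2.74-fold higher before the block and 4.85-fold higher after 1 h in the labelled Nat10-deficient libraries. It was 24.4-fold higher in WT at 3 h (3.20-, 4.66- and 30.0-fold on the TMM scale), the group and time through which it passed the filter. The counting error of the higher group is not included in these values. Its WT files thus do not follow a falling course, and fitted fold changes of Mycl are not given.

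**Figure D1:**
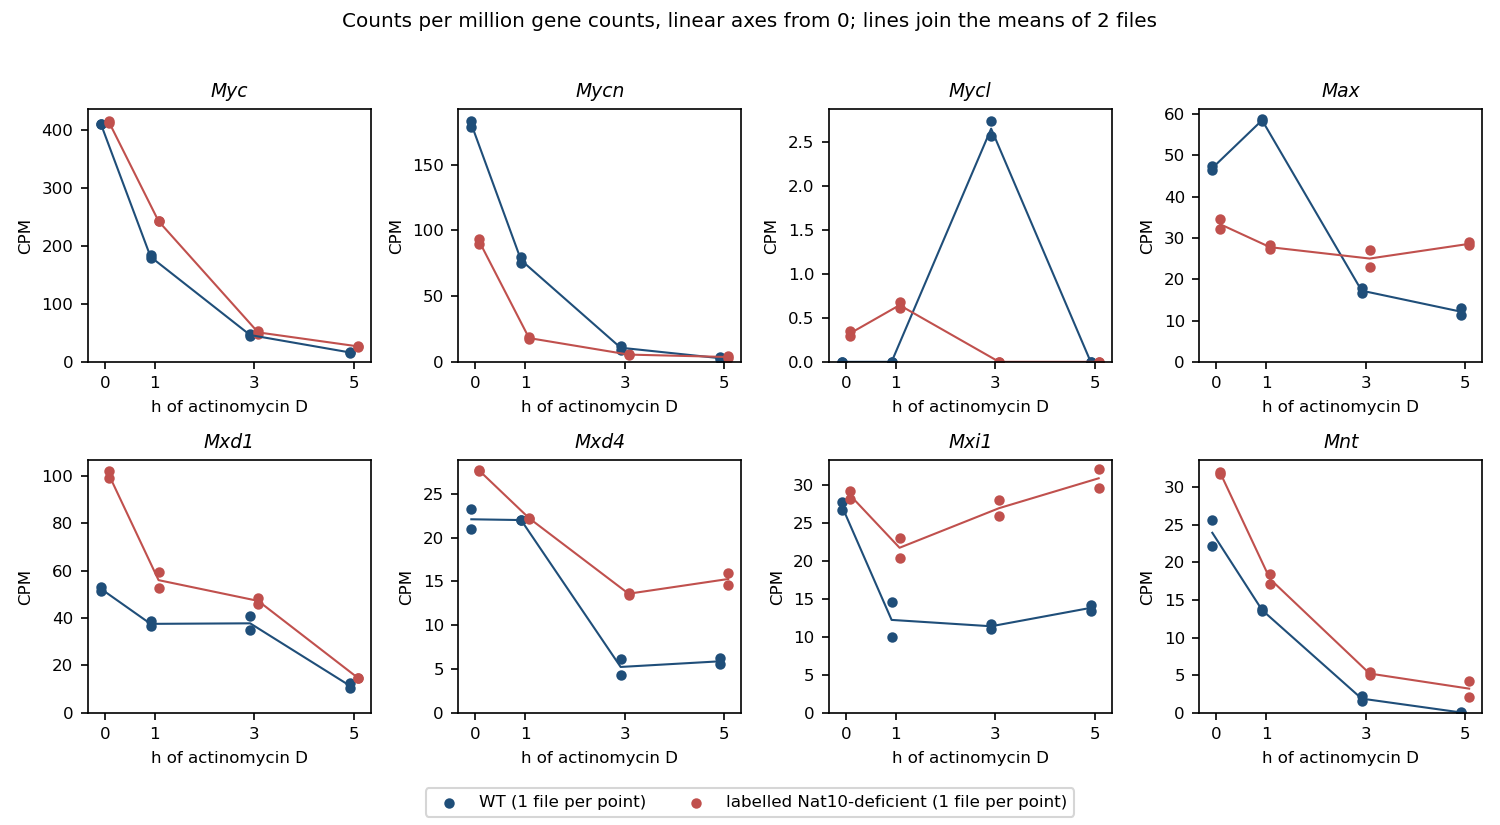
CPM of each network gene (linear axes, each from 0) against hours of actinomycin D, with 1 point per file, WT in blue, labelled Nat10-deficient in red, and lines through the means of 2 files. Myc starts at the same height in both genotypes (411 to 417 CPM), Mycn starts lower and Mxd1 higher in the labelled Nat10-deficient files.

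At 0 h, the network of the labelled Nat10-deficient libraries differed from WT in less Mycn and more Mxd1 and Mnt with TMM scaling. Of the 8 members, 6 (Mycl among them, on its few counts) were called higher and 2 lower by edgeR's quasi-likelihood test with TMM scaling, which takes most genes as not different (adjusted over 25081 genes, threshold 0.05), and 0 were uncalled. With the same rule 36% of all genes tested were called higher and 24.2% lower, so that most genes were called and the sizes carry more than the calls. The median log2 difference over all genes tested was 0.10. Scaled on ERCC counts instead, the median was 6.24 and 8 of 8 members were higher, so every direction below is one relative to the bulk of mRNA. The 2 files of each group were also summed to 1 library and straight lines fitted over the times, which leaves only departures from those lines as error. The difference between the lines at 0 h, not between the 0 h libraries, was called for 0 of all genes, so 0 members called is no result about the members.

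Mycn was the member with the largest deficit, although 20.3% of all genes tested had a lower log2 difference. Its level was 179 and 183 CPM in WT and 93.4 and 89.7 CPM in the labelled Nat10-deficient files (log2 difference -0.76 ± 0.05 SE, adjusted p = 3.2e-31). The groups did not overlap, and the sign held with RLE scaling (median count ratios) and with long-lived mRNA scaling (median ratios over a list of stable mRNAs) but turned with ERCC scaling (5.38, below the median of all genes). Stem cell markers, 14 of 16 of which were called lower at this time (median log2 difference -1.40), moved in the same direction.

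Myc itself was not clearly different. It stood at 411 and 412 CPM in WT and 414 and 417 CPM in the other genotype, a gap of a few CPM. The fitted log2 difference of 0.23 ± 0.03 (adjusted p = 6.2e-11) arose with the TMM factors, and it turned to -0.12 when libraries were scaled on long-lived mRNAs, so no direction is given for Myc at rest. Max, the obligate partner, stood at 47.4 and 46.5 CPM in WT and 34.5 and 32.1 CPM in the labelled Nat10-deficient files (log2 difference -0.27 ± 0.08, adjusted p = 0.0017). Max files did not overlap, although ERCC scaling turned the sign (5.87) and without the second labelled Nat10-deficient file at 0 h the call was lost (-0.20, adjusted p = 0.072).

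Among the repressors, Mxd1 showed the largest difference. Mxd1, a repressor that rises as blood cells differentiate, stood at 53.3 and 51.5 CPM in WT and at 102 and 99.2 CPM in the labelled Nat10-deficient files (1.16 ± 0.06, adjusted p = 1.6e-45). Mnt, which is expressed broadly and opposes Myc in dividing cells, had 22.2 and 25.6 CPM in WT and 31.8 and 32.0 CPM in the other genotype (0.64 ± 0.11, adjusted p = 5.0e-08). Both were higher without overlap, and both kept their sign with long-lived mRNA scaling. Of all genes tested, 77.5% had a lower log2 difference than Mxd1 and 69.7% a lower one than Mnt. Mxd4, a repressor linked to quiescent cells, had 23.2 and 21.0 CPM in WT and 27.6 and 27.7 CPM in the other genotype (0.54 ± 0.10, adjusted p = 1.4e-06), and the call was lost with long-lived mRNA scaling (0.19, adjusted p = 0.10). Mxi1 had 27.8 and 26.7 CPM in WT and 29.2 and 28.2 CPM in the labelled Nat10-deficient files (0.30 ± 0.09, adjusted p = 0.0044). That small difference was lost with RLE scaling (0.20, adjusted p = 0.066) and turned to -0.06 with long-lived mRNA scaling. Exons of Mxd4 and Mxi1 overlap another annotated gene over 514 and 194 bases, and reads there cannot be assigned to one gene without strand.

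Genes that act with the network were tested from lists chosen by function. Of 18 cofactors and extended network members, 9 were called higher and 4 lower at 0 h with TMM scaling (median log2 difference 0.24), beside the 36% and 24.2% of all genes, and 2 higher and 9 lower with long-lived mRNA scaling. The DNA helicase subunit Ruvbl1 (0.37 ± 0.04), the histone deacetylase Hdac1 (0.40 ± 0.04) and the Mxd co-repressor Sin3b (0.22 ± 0.04) were the most abundant, and all were called higher with TMM. Of 15 regulators of Myc protein turnover, 9 were called higher and 4 lower with TMM (median 0.42), against 4 and 7 with long-lived mRNA scaling. Among the most abundant, the kinase Pim2 (-0.22 ± 0.05) and the ubiquitin ligase Huwe1 (-0.33 ± 0.05) were lower. Of 17 RNA-binding proteins known on Myc mRNA, 10 were called higher and 3 lower with TMM (median 0.40), against 6 and 6 with long-lived mRNA scaling. Hnrnpk (0.34 ± 0.02) and Ptbp1 (0.41 ± 0.03) were higher, and Zfp36, which binds AU-rich elements and promotes decay, was lower (-1.06 ± 0.02). The direction of these 3 lists, and of the genes named from them, is thus the one under TMM scaling.

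Of 55 genes known to be activated by Myc, 45 were called higher and 6 lower at 0 h, with a median log2 difference of 0.43 beside 0.10 over all genes. Ncl, a nucleolar protein of ribosome production, differed by 0.60 ± 0.02, the mitochondrial chaperone Hspd1 by 0.43 ± 0.02, and the glycolytic enzyme Ldha by 0.13 ± 0.02. Long-lived reference mRNAs differed by as much, with 32 of 35 called higher and a median of 0.39. When the libraries were scaled on those mRNAs, 26 of the Myc-activated genes were called higher and 18 lower, so their direction as a list depends on the scaling. Of 14 genes known to be repressed by Myc, 5 were called higher and 5 lower with TMM (median 0.06), against 2 and 8 with long-lived mRNA scaling. The integrin Itgb1 (-0.30 ± 0.04), the transcription factor Klf6 (-0.75 ± 0.03) and Txnip, an inhibitor of thioredoxin (-1.05 ± 0.04), were the most abundant and all were lower with TMM.

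Instability signals were sought in the 3′ untranslated regions, because AU-rich elements with the pentamer ATTTA are known to speed mRNA decay. Annotated 3′ untranslated regions (GENCODE M21 transcripts, GRCm38, sense strand) held 2 ATTTA pentamers in Myc (466 bases long), 1 in Mycn (913), 2 in Mycl (1970), 1 in Max (1299), 5 in Mxd1 (3829), 0 in Mxd4 (3105), 4 in Mxi1 (1418) and 1 in Mnt (2405). At least 1 ATTTA was present in 69.7% of 15946 tested genes with an annotated region, so its presence is common. Per kilobase, Myc (4.29) and Mxi1 (2.82) lay above the median of 1.40 over those genes, and the other 6 lay below it. The longer TATTTAT, which contains ATTTA and occurs in 29.9% of the genes, was found in Max, Mxd1 and Mnt, and the nonamer TTATTTATT, which occurs in 8.01%, in 0 of the 8. One 30-base window for each of 5 members shows these sites, with ATTTA in capitals.
Mycn, chr12:12936149-12936178, minus strand: tcaaaatgtatatATTTAgtgctgcacctt
Max, chr12:76937764-76937793, minus strand: atgatgttttgatATTTAtttcctgctact
Mxd1, chr6:86649848-86649877, minus strand: acctataaatactATTTAttcattttatat
Mxi1, chr19:53371860-53371889, plus strand: tcagaagacctgtATTTAagcaaatactta
Mnt, chr11:74844325-74844354, plus strand: tttttaagtggatATTTAttacaagtggcc
A match is a description of the letters.

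In the first hour of the block, Myc, Mycn and Mxi1 lost most mRNA in WT and Max lost least. On the ERCC scale, which sets each library to its spike-in and so measures mRNA against an added amount, Myc fell to 27.4% and 26.8% of its 0 h mean in WT and to 22.4% and 22.3% in the labelled Nat10-deficient libraries. These correspond to apparent half-lives of 31.9 min and 27.8 min. On this scale long-lived reference mRNAs also fell in that hour (median log2 change -1.11 in WT and -1.22 in the other genotype). The half-lives thus include a loss that stable mRNAs shared. Mycn fell to 25.4% and 27.1% in WT but to 7.27% and 7.82% in the other genotype, or half-lives of 31.1 min and 16.1 min. On the TMM scale the half-lives were longer, 64.0 min and 74.0 min for Myc, in which the order of the genotypes turned, and 60.8 min and 25.2 min for Mycn. The 2 paralogues thus fell by like amounts in WT and by unlike amounts in the labelled Nat10-deficient libraries.

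By the ERCC scale, 7 of 8 members were called lower and 0 higher at 1 h than at 0 h in both WT and the labelled Nat10-deficient libraries, the exception being Mycl. Among all genes tested, 55.7% were lower and 16% higher in WT, and 68.6% lower and 4.8% higher in the other genotype. The median log2 change over all genes was -0.83 in WT and -1.33 in the labelled Nat10-deficient libraries. Lists of known stability frame these values: 24 short-lived reference mRNAs had a median of -2.52 in WT and -2.71 in the other genotype, and 35 long-lived ones -1.11 and -1.22. Myc (-1.88 ± 0.04 and -2.16 ± 0.04) lay between those medians in both.

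Max showed how far the choice of scale matters. Max stood at 75.9% and 77.3% of 0 h in WT after 1 h on the ERCC scale (-0.39 ± 0.08, adjusted p = 1.1e-05), and at 31.3% and 32.4% in the labelled Nat10-deficient files (-1.65 ± 0.09). On the TMM scale, which sets the bulk of genes to no change, Max was higher at 1 h than at 0 h in WT (0.56 ± 0.08, adjusted p = 7.7e-11). In the other genotype it was lower on both scales (-0.30 ± 0.08 with TMM).

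The repressors fell by different amounts. In WT, Mxi1 fell to 22.3% and 32.9% of 0 h, Mnt to 35.2% and 34.8%, Mxd1 to 45.1% and 43.1%, and Mxd4 to 60.9% and 61.5% on the ERCC scale. In the labelled Nat10-deficient libraries the same genes fell to 30.8% and 27.1%, 22.1% and 20.5%, 20.1% and 22.5%, and 30.8% and 30.6%. Mxi1 was the one repressor whose files overlapped between genotypes. Its 2 WT files at that time, with 127 and 142 counts, were further apart than those of any other of the 7 detected members.

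**Figure D2:**
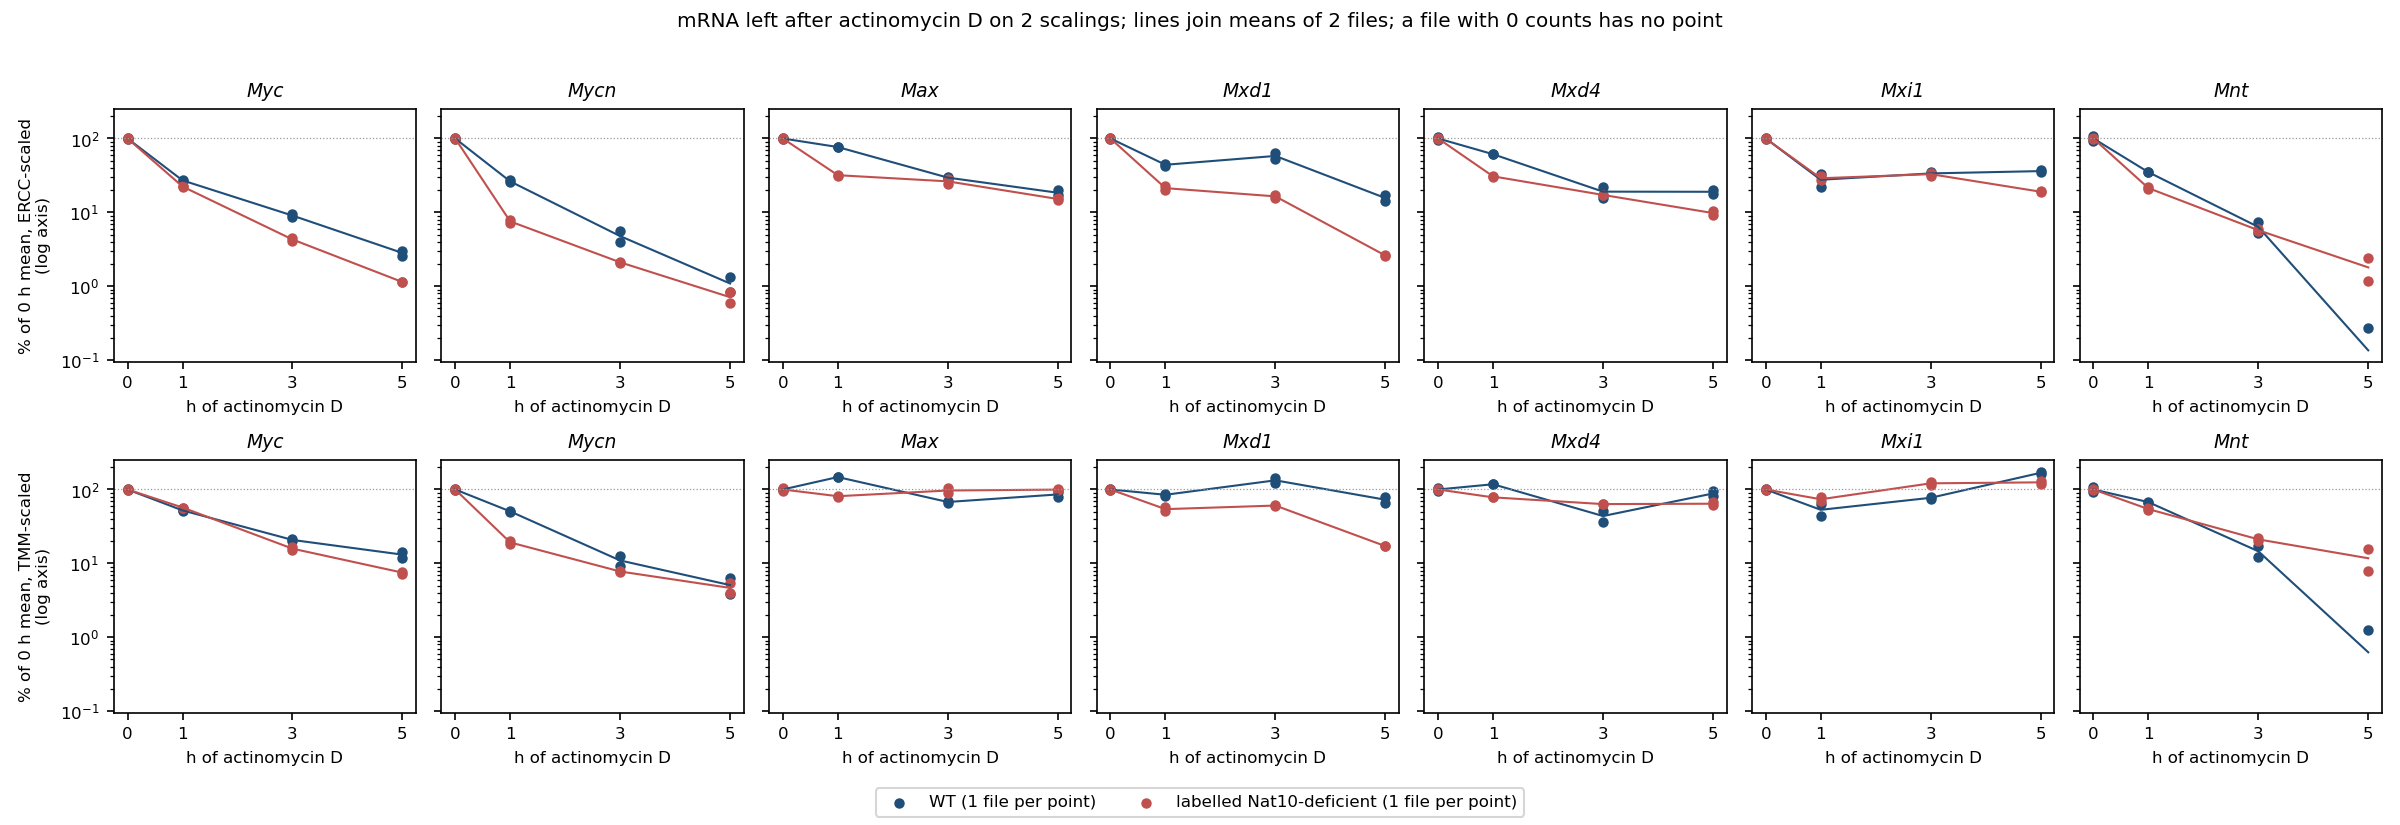
Percent of the 0 h mean of the same genotype (log axis) against hours of actinomycin D for 7 members, scaled on ERCC counts (top) or by TMM (bottom), with 1 point per file and lines through the means of 2 files. Mycn drops further in the first hour in the labelled Nat10-deficient files on both scales, while for Myc the order of the genotypes at 1 h depends on the scale.

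The difference in first-hour change between genotypes was tested as an interaction. On the ERCC scale 6 of 8 members fell further in the labelled Nat10-deficient libraries and 0 fell less, beside 38.3% and 12.6% of all genes, and the median over all genes was itself -0.44. Among the members Mycn differed most (-1.80 ± 0.11, adjusted p = 8.8e-59), followed by Max (-1.27 ± 0.12), Mxd1 (-1.05 ± 0.10), Mxd4 (-0.99 ± 0.16) and Mnt (-0.72 ± 0.17). Of all genes tested, 26.3% had a lower value than Mycn, 31.7% than Max and 34.6% than Mxd1. Myc differed by -0.28 ± 0.06 (adjusted p = 1.6e-05), less than the median gene, and Mxi1 by 0.10 ± 0.16 (adjusted p = 0.72).

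With TMM scaling, where the median over all genes was -0.02, 4 members still fell further: Mycn (-1.39 ± 0.10, adjusted p = 6.9e-31), Max (-0.86 ± 0.12), Mxd1 (-0.65 ± 0.10) and Mxd4 (-0.59 ± 0.15). Myc turned to 0.13 ± 0.05 (adjusted p = 0.028), Mxi1 was called higher (0.50 ± 0.16, adjusted p = 0.0039), and Mnt was no longer called (-0.32 ± 0.17, adjusted p = 0.12). The faster first-hour loss of Mycn therefore held on both scales, and no direction held for Myc. With TMM, 25.4% of all genes had a lower value than Mycn, so a difference of that size was not particular to it.

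Mycn counts per 100 Myc counts, which no scaling of libraries can alter, showed the same contrast. In WT the number was 43.4 and 44.5 before the block and 40.8 and 44.5 after 1 h, so that the files of the 2 times overlapped. In the labelled Nat10-deficient files it dropped from 22.6 and 21.5 to 7.15 and 7.73. Later WT files fell to 20.5 and 25.7, then to 19.6 and 13.9, whereas the other genotype stood at 10.1 and 11.7, then at 11.3 and 16.3. The genotypes overlapped at the last time.

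Across all 4 times, 7 of 8 members had a falling log2 slope on the ERCC scale in WT and 8 of 8 in the labelled Nat10-deficient libraries, Mycl included on its few counts, with 0 rising in both. Among all genes tested 57.4% fell and 11.1% rose in WT, and 71.3% fell and 3.19% rose in the other genotype. Myc fell by 0.97 ± 0.01 per hour in WT and by 1.25 ± 0.01 per hour in the labelled Nat10-deficient libraries. Those slopes amount to half-lives of 61.6 min and 47.9 min, longer than in the first hour alone. At 5 h, 3.04% and 2.60% of Myc was left in WT and 1.15% and 1.13% in the other genotype.

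Mycn slopes were -1.27 ± 0.02 in WT and -1.30 ± 0.02 per hour in the labelled Nat10-deficient libraries, a difference of -0.03 ± 0.05 that was not called (adjusted p = 0.81). This difference depended on the last time: leaving out 5 h in both genotypes gave -0.29 (adjusted p = 1.4e-05, beside -0.26 for the median gene), and leaving it out in WT alone gave 0.13 (adjusted p = 0.018). Mxd1 did differ: 3 h into the block 53.4% and 62.6% was left in WT against 17.0% and 15.9% in the other genotype, and after 5 h 17.0% and 14.3% against 2.56% and 2.65%. The WT mean of Mxd1 rose from 44.1% at 1 h to 58.0% at 3 h, so its slope does not describe a steady loss. Mxi1 had the most left at 5 h, with 37.1% and 35.3% in WT and 19.4% and 18.7% in the other genotype. Its WT mean rose after the first hour, from 27.6% at 1 h to 33.7% at 3 h and 36.2% at 5 h. In the labelled Nat10-deficient libraries the Mxi1 mean was 29.0% at 1 h and 32.9% at 3 h. What remains of Mxi1 is thus not a measure of its stability alone. Max retained 17.1% and 19.8% in WT and 14.6% and 15.7% in the labelled Nat10-deficient files at 5 h, and Mxd4 20.1% and 17.9% against 9.14% and 10.4%.

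In the test of the slope difference, 4 members fell faster and 1 fell more slowly in the labelled Nat10-deficient libraries, beside 32.1% and 15.7% of all genes and a median of -0.10 per hour. With the files of each group summed, 70 of all genes and 0 members were called, so that 0 is no result about the members. Mxd1 (-0.49 ± 0.03 per hour, adjusted p = 1.9e-69) and Myc (-0.28 ± 0.02, adjusted p = 8.4e-45) fell faster, and they did so with TMM scaling too (-0.39 ± 0.03 and -0.18 ± 0.02). Mxi1 (-0.18 ± 0.03, adjusted p = 2.1e-09) and Mxd4 (-0.10 ± 0.04, adjusted p = 0.013) also fell faster on the ERCC scale, and Mxd4 was not called with TMM scaling (-0.01). Without the 5 h time point, Mxi1 was no longer called (-0.02) and Mxd4 turned to 0.02, and the Mxd4 call was also lost without the first 5 h file of either genotype (-0.09).

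Mnt was the member that fell more slowly (0.66 ± 0.14, adjusted p = 1.5e-05), and this rested on a single time. In order of time, Mnt counts in WT were 297 and 312, then 176 and 132, 21 and 14, and 0 and 1. In the labelled Nat10-deficient files they were 536 and 552, then 271 and 252, 68 and 76, and 31 and 66. Without 5 h in both genotypes the slope difference was -0.01. At 5 h the 97 summed counts against 1 gave a CPM ratio of 80.1 with a 95% counting interval of 14.0 to 3195, or 32.7 (5.73 to 1304) on the TMM scale.

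Between genotypes at the later times the members did not keep one pattern. At 1 h, 5 members, Mycl included, were called higher and 2 lower in the labelled Nat10-deficient libraries, beside 32.4% and 31.8% of all genes. Mycn was lower, at 75.2 and 79.5 CPM in WT and 17.4 and 18.8 CPM in the other genotype (-2.15 ± 0.08, adjusted p = 7.1e-71), and Max was lower too, at 58.2 and 58.8 against 27.2 and 28.3 CPM (-1.13 ± 0.08). Both held with long-lived mRNA scaling and turned with ERCC scaling (3.58 and 4.60, beside a median of 5.64 over all genes). Myc was higher with TMM, at 184 and 179 against 243 and 243 CPM (0.36 ± 0.04), but lower with long-lived mRNA scaling (-0.28). Among the repressors, Mxi1 (0.80 ± 0.12), Mxd1 (0.51 ± 0.08) and Mnt (0.32 ± 0.13) were higher. Of these Mxd1 (-0.13) and Mnt (-0.32) turned with long-lived mRNA scaling, Mxi1 lost its call with it (0.16, adjusted p = 0.26), and Mnt lost its call with RLE scaling (0.21, adjusted p = 0.17) or without either WT file or the first labelled Nat10-deficient file of that time (0.27 to 0.35).

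At 3 h, 4 members were called higher and 3 lower, beside 30.4% and 37% of all genes. One of the 3 was Mycl, which passed the filter only through the WT files of that same time, so its call there carries no weight. Mycn was again lower (-1.25 ± 0.17, or 4.20 with ERCC scaling), at 9.07 and 12.4 against 5.40 and 5.62 CPM. Mxd4 (1.07 ± 0.18), Mxi1 (0.95 ± 0.13) and Mnt (1.16 ± 0.28) were higher, and each lost the call with long-lived mRNA scaling (0.24, 0.11 and 0.33), which moved the median of all genes from -0.07 to -0.90. Myc (-0.16 ± 0.07, adjusted p = 0.030) and Max (0.24 ± 0.11, adjusted p = 0.047) lay close to the threshold. Leaving out single files ended the Myc call in 12 of 16 fits (-0.14 to -0.07) and the Max call in 5 (0.13 to 0.32), and Max turned to -0.0049 with RLE and to -0.59 with long-lived mRNA scaling.

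At 5 h, 1 member was called higher (Mnt) and 3 lower, beside 34.2% and 30.1% of all genes. Myc (-0.59 ± 0.09) and Mycn (-0.91 ± 0.24) were lower with TMM, as was Mxd1 (-0.94 ± 0.12). In CPM none of the 3 was lower: Myc had 17.6 and 15.0 CPM in WT and 27.6 and 25.9 in the other genotype, Mxd1 12.5 and 10.5 against 14.9 and 14.8, and Mycn overlapped. ERCC scaling turned all 3 (5.06, 4.72 and 4.71), and immunoglobulin genes took up to 66.7% of WT gene counts at that time. Without the first WT file at 5 h, neither Myc (-0.26, adjusted p = 0.081) nor Mycn (-0.27, adjusted p = 0.56) was called.

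**Figure D3:**
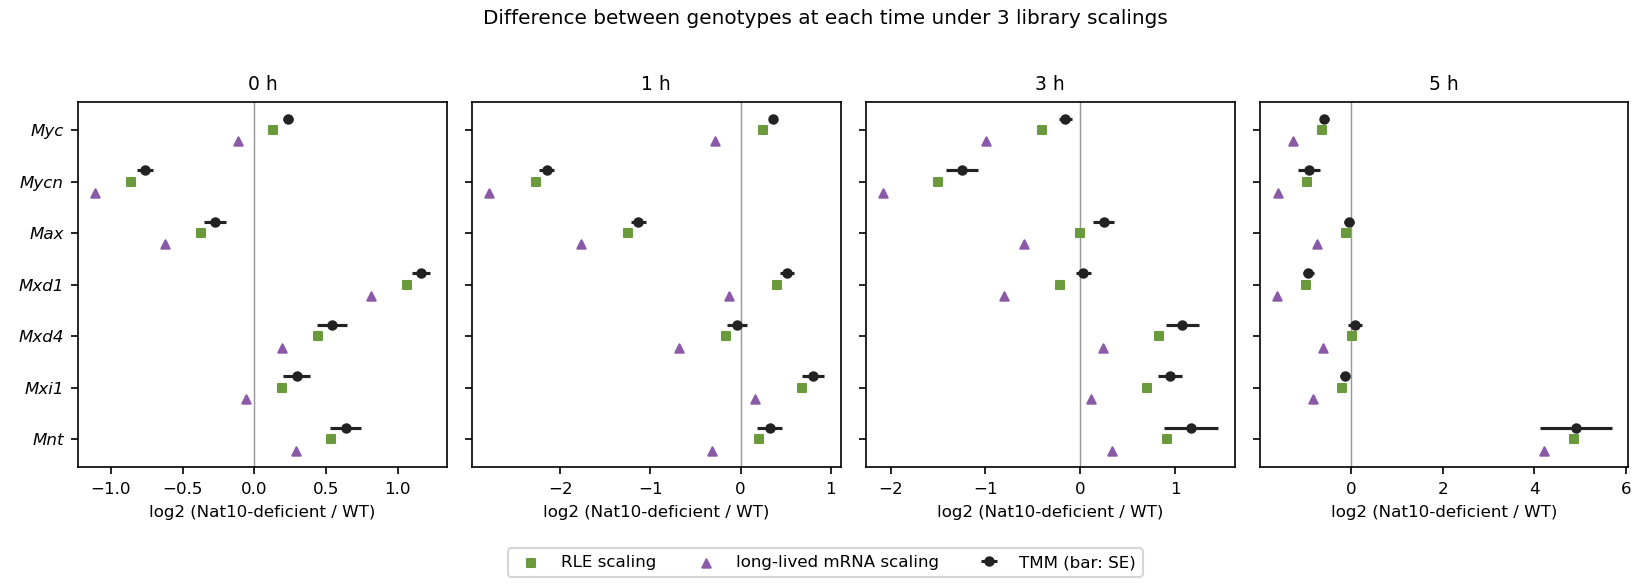
Log2 difference (labelled Nat10-deficient over WT) of 7 members at 0, 1, 3 and 5 h with TMM scaling (black, bars show SE), RLE scaling (green squares) and long-lived mRNA scaling (purple triangles); axes differ between panels. Mycn lies left of 0 at every time under these 3 scalings (but not under ERCC scaling, which is not drawn), and Myc crosses 0 between scalings at 0 and 1 h.

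Ratios within a library show the balance of the network without any scaling. The activators summed per length (Myc, Mycn and Mycl) exceeded the repressors (Mxd1, Mxd4, Mxi1 and Mnt) 10.7 and 10.8 times in WT at 0 h and 6.26 and 6.38 times in the labelled Nat10-deficient files. After 1 h the ratio was 7.25 and 7.01 in WT and 5.44 and 5.38 in the other genotype. By 3 h it was 2.55 and 2.66 against 1.57 and 1.49, and by 5 h 1.64 and 1.49 against 1.23 and 1.17. WT lay above the labelled Nat10-deficient files at each time without overlap, and in both genotypes the ratio fell with time.

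Myc per Max moved the other way at rest. Per length there were 11.5 and 11.7 Myc per Max in WT at 0 h and 15.9 and 17.2 in the labelled Nat10-deficient files. After 1 h the ratio was 4.19 and 4.03 against 11.8 and 11.4. By 3 h WT stood at 3.29 and 3.84 and the other genotype at 3.10 and 2.35, and by 5 h the values were 2.06 and 1.53 against 1.30 and 1.19. The order of the genotypes was thus opposite at early and late times.

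**Figure D4:**
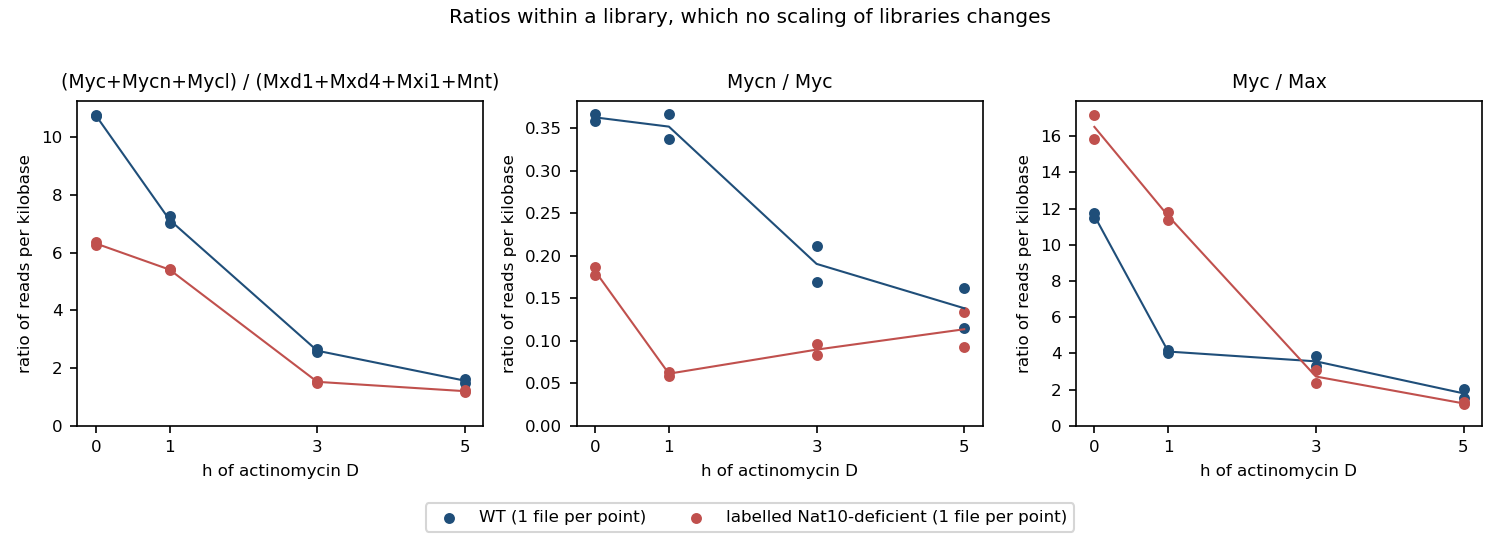
Ratios of CPM per kilobase within each library against hours of actinomycin D: activators over repressors, Mycn over Myc, and Myc over Max, with 1 point per file and lines through the means of 2 files; axes start at 0. Activators over repressors fall from 10.7 and 10.8 in WT and from 6.26 and 6.38 in the labelled Nat10-deficient files, and Mycn over Myc drops in the first hour in the latter while the WT files of 0 and 1 h overlap.

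The order of levels shifted during the block. Myc stayed first at all times in both genotypes. After 1 h Mycn still came next in WT, but in the labelled Nat10-deficient libraries (5.49 CPM per kilobase) it lay below Mxd1 (7.93) and Max (7.72), which overlapped each other. By 5 h Max came after Myc in both (3.37 in WT and 7.94 in the other genotype), followed by Mxi1 (2.03 and 4.53). Mycn and Mxd4 overlapped in WT at 5 h, and Max and Mxd1 overlapped at 3 h in both genotypes.

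Over the 8 group means of TMM-scaled log2 CPM, which share libraries, depth and the same time course, genes most like Myc included Usp38 (Pearson r = 0.995), Cbfa2t2 (0.993), Slc38a2 (0.987) and Rtp4 (0.984), out of 7837 candidates. Those most like Mycn were Sertad2 (0.989), Marcksl1 (0.984), Rlf (0.982), Wee1 (0.982) and Gcc1 (0.980). Myc and Mycn themselves had r = 0.90 with each other, and Myc and Mnt 0.80. For Mnt the closest was Ado (0.992), for Mxd4 Pheta2 (0.984), for Mxi1 Tmed5 (0.965), for Mxd1 Zfp956 (0.947) and for Max Syt11 (0.923). Mxi1 had a negative r with 6 of the other 7 members, the exception being Mxd4 (0.08). With 8 points these values describe the courses and carry no test.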

How the data were processed

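The deposited files hold whole fragment counts per gene made by the authors with featureCounts 1.6.3 over exons, without strand, per the file headers, and STAR, DESeq2 and GRCm39 are named in the submitters' processing notes. Exon length (another kind of value in the deposited files) was used for levels per kilobase. Counts of the 92 ERCC spike-ins were kept out of gene totals. Symbols of 94.0% of 55414 genes came from the reference gene table, and transcripts came from GENCODE M21 (GRCm38). Members are Myc (ENSMUSG00000022346, GRCm39 chromosome 15, 61857240 to 61862223), Mycn (ENSMUSG00000037169, chromosome 12, 12986094 to 12991915), Mycl (ENSMUSG00000028654, chromosome 4, 122889445 to 122896278), Max (ENSMUSG00000059436, chromosome 12, 76984043 to 77008975), Mxd1 (ENSMUSG00000001156, chromosome 6, 86624024 to 86646143), Mxd4 (ENSMUSG00000037235, chromosome 5, 34331227 to 34345064), Mxi1 (ENSMUSG00000025025, chromosome 19, 53298949 to 53364241) and Mnt (ENSMUSG00000000282, chromosome 11, 74721746 to 74736551), all protein-coding.

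All 16 files entered 1 edgeR 4.0.16 quasi-likelihood fit per scaling (R 4.3.3), after filterByExpr left 25081 genes. Genotypes were compared with TMM factors and time courses with ERCC totals, since TMM hides a loss common to most genes. P-values were Benjamini-Hochberg adjusted over all 25081 genes (threshold 0.05), the error is the log2 value over the square root of F, and apparent half-lives are reciprocals of falling log2 slopes. The fit was tested on simulated data. Alternatives were RLE, ERCC, TMM and long-lived mRNA scaling, TMM without immunoglobulin genes, no filter, a replicate block, each file left out, summed files and DESeq2 1.42.0. Slopes without 5 h were added after seeing the data. Named genes were the 8 members, the 3 most abundant of each list, Nat10, and the 5 genes most correlated with each member (mean of at least 10 CPM); some of these are not reported here. The members and lists were chosen with earlier results of these data known. Counting intervals cover counting error only, and floors cover only that of the group at 0.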

Additional observations from a re-analysis of the deposited data

Results flagged for a closer look

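The course of the members after actinomycin D differed between genotypes by the test of the difference itself, in files of which 2 per group share an alignment. In the first hour on the ERCC scale, 6 members changed by a different amount in the labelled Nat10-deficient libraries than in WT: Mycn (-1.80), Max (-1.27), Mxd1 (-1.05), Mxd4 (-0.99), Mnt (-0.72) and Myc (-0.28), in log2 units. Of all genes, 38.3% were called lower and 12.6% higher in that test, with a median of -0.44, so Myc differed less than the median gene. Values lower than that of Mycn were found for 26.3% of all genes. Over all 4 times the slopes of 5 members differed: Mxd1 (-0.49 per hour), Myc (-0.28), Mxi1 (-0.18), Mxd4 (-0.10) and Mnt (0.66). For slopes, 32.1% of all genes were called lower and 15.7% higher, with a median of -0.10 per hour. Mycn, Max, Mxd1 and Mxd4 kept their first-hour difference on the TMM scale, while that of Myc turned to 0.13. The Mnt slope rested on 0 and 1 counts in WT at 5 h. Immunoglobulin genes took 3.92% to 3.94% of WT gene counts before the block, 27.8% to 28.0% an hour into it and 66.4% to 66.7% at its end. Of 16 plasma and B cell markers, 15 were higher in WT in the first hour (median log2 change 1.72), and the part of that gain in these differences was not tested.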

How the results depend on the processing

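With long-lived mRNA scaling, members called higher numbered 3, 1 and 0 at 0, 1 and 3 h, and members called lower 5, 5 and 6 at 1, 3 and 5 h. Mycl, on its few counts, was among those higher at 0 h and those lower at 3 h. It was the only member called higher at 1 h. The median over all genes with this scaling was -0.07, -0.51, -0.90 and -0.19 at 0, 1, 3 and 5 h, so a shift downwards was not particular to the members. Signs turned for Myc (-0.12) and Mxi1 (-0.055) at 0 h, Myc (-0.28), Mxd1 (-0.13) and Mnt (-0.32) at 1 h, Max (-0.59) and Mxd1 (-0.80) at 3 h, and Mxd4 (-0.62) at 5 h. The same scaling gave first-hour calls in WT of 2 higher and 4 lower, with Max at 0.73 and Mxd4 at 0.40. It also turned the WT slope of Mxi1 (0.10, 1 member rising) and the slope difference of Mycn (0.00039, 2 members with a slower fall). In these 3 tests 15895, 15986 and 12802 of all genes had an unadjusted p under 0.05 in either direction.

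ERCC scaling between genotypes moved the median of all genes to 6.24, 5.64, 5.19 and 5.62 at 0, 1, 3 and 5 h and left 0 members lower at every time, with 8, 7 and 7 higher at 1, 3 and 5 h. Signs turned for Mycn (5.38) and Max (5.87) at 0 h, Mycn (3.58), Max (4.60) and Mxd4 (5.69) at 1 h, Myc (5.30) and Mycn (4.20) at 3 h, and Myc (5.06), Mycn (4.72), Max (5.59), Mxd1 (4.71) and Mxi1 (5.51) at 5 h. On this scale the direction follows the spike-in shares of the libraries, and why those shares differ was not tested.

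With TMM for the courses, WT first-hour changes were 0.56 for Max and 0.23 for Mxd4 (1 member higher), and the first-hour difference of Myc was 0.13 (2 members higher). Over all genes, 16090 WT first-hour changes and 13535 first-hour differences had an unadjusted p under 0.05. Slopes were 0.20 for Mxi1 in WT, 0.022 for Max and 0.11 for Mxi1 in the labelled Nat10-deficient libraries (1 member rising in each), and the slope difference of Mycn was 0.064 (2 members higher). For all genes the same threshold was passed by 15416 slopes in WT, 15927 in the other genotype and 12936 slope differences. RLE scaling put Max at -0.0049 and Mxd1 at -0.22 at 3 h, DESeq2 put them at -0.0051 and -0.22, and without a filter Mxd4 was 0.0012 at 1 h.

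Without the WT libraries at 5 h the slope differences of Mycn (0.13), Mxd4 (0.19) and Mxi1 (0.050) turned, 3 members had a slower fall and 1 rose in WT. The 1 that rose was Mycl, whose only WT counts are those at 3 h, through which it passed the filter. Without 5 h in both genotypes Mxd4 was 0.015 and Mnt -0.0096, 0 members had a slower fall, and 1 (again Mycl) rose in WT. Over all genes, 14463 and 14165 slope differences had an unadjusted p under 0.05 in these settings. With the files of a group summed, the spread is the departure from straight lines in time. For the difference between those lines at 0 h, 0 genes were called (1240 at an unadjusted p under 0.05), with 0 members higher and 0 lower. That fit called 6897 slopes in WT, 8891 in the other genotype and 70 slope differences (1722 unadjusted), with 0 members higher and 0 lower.

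Leaving out 1 file at a time gave 1 to 2 members lower at 0 h and 1 to 3 at 5 h, the lowest without the second labelled Nat10-deficient file at 0 h and without the first WT file at 5 h. Signs turned for Mycn in the slope difference (-0.083 to 0.049), Mxi1 in the first-hour difference (-0.19 to 0.37), Mxd1 at 3 h (-0.057 to 0.15), and Max (-0.060 to 0.23) and Mxi1 (-0.18 to 0.11) at 5 h, none of which was called with all files. Replicate numbers did not pair the samples: deviations of same-numbered WT and labelled Nat10-deficient files had correlations of -0.0044, 0.0018, 0.0084 and -0.0078 at the 4 times. With a replicate block, Max at 3 h was no longer called (0.24, adjusted p = 0.054, 3 members higher), and no other member's call changed. Depth limits Mycl, at 26 counts or fewer, and Mnt in WT at 5 h.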
